A study of Mus musculus with 6 samples.

Results

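The DNA replication machinery is described here through 50 genes, chosen by name from the 28879 genes of the expression table as the factors that license, unwind, copy and repackage the genome. RNA-Seq was performed on mouse blastocysts that were either fresh or vitrified–warmed, that is, cooled to a glass-like state in cryoprotectant with a clinical vitrification kit (Cryotech) and warmed again. Embryos of both groups were cultured for 3 days in human tubal fluid. The growth protocol and the study's methods name C57BL/6JNarl females aged 6 to 8 weeks that received 5 IU of human chorionic gonadotropin, while the series text names B6CBF1. The labels name no other treatment for either group. The paper also gives an earlier injection of pregnant mare serum gonadotropin to the females. For warmed embryos it gives an incubation in human tubal fluid before transfer, and it does not state whether the sequenced embryos had this step. Each group held 3 libraries, and these were aliquots of 1 pool of blastocysts per group, so that the p-values measure the spread between aliquots and not between embryos, litters or vitrification runs. A vitrification effect and a difference between the 2 pools cannot be told apart.

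A replicating cell first loads the MCM2-7 helicase onto origins in G1 phase, through the origin recognition complex (ORC), CDC6 and CDT1. In S phase CDC45 and the GINS complex bind the helicase and switch it on, DNA polymerase alpha-primase lays down primers, and polymerases epsilon and delta copy the leading and lagging strands on the sliding clamp PCNA. In the blastocyst, where cells divide rapidly and maternal stores are running out, much of this machinery is supplied by transcripts of the embryo itself, and E2F transcription factors are known to drive many of its genes at the entry to S phase.

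All 50 genes passed the filter on low counts. In vitrified–warmed blastocysts 14 of them were higher and 20 were lower than in fresh blastocysts at an adjusted p under 0.05 (edgeR's quasi-likelihood test, Benjamini–Hochberg adjustment over 12774 genes), and 16 did not pass. Over all genes tested 31.6% were higher and 32.8% were lower, so that the members' shares of 28% and 40% were near the background. The changes were small. Of the members called, 1 was at least 1.5-fold higher and 2 were at least 1.5-fold lower, whereas 18.5% of all genes were at least 1.5-fold higher and 17.7% at least 1.5-fold lower. The median log2 fold change of the members was -0.0066 against -0.0011 for all genes tested, and the members ranged from -0.86 (Pold1) to 1.75 (Gins2). Among the 8535 genes whose mean level lay within the members' own range, 29.1% were higher and 35.2% were lower, 912 by at least 1.5-fold upwards and 1165 downwards. The groups of 3 libraries did not overlap for 34 members, 14 above and 20 below, as they did not for 68.6% of all genes.

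The direction counts depend on the scaling. On the FPKM scale, with the deposited FPKM taken as given, the median of all genes tested shifted to -0.18 (log2). Limma on log2(FPKM + 0.5) gave 6 members higher and 24 lower, with a members' median of -0.17. Mcm4 and Rrm2 changed sign there. Other choices moved the counts the other way. Scaling the counts to the 12 housekeeping genes that the paper names for its calibration gave 17 higher and 19 lower. A filter at a mean above 1 FPKM gave the same counts. In both, calls were gained by Orc4, Mcm2 and Pcna as higher. An exon length offset gave 17 higher and 20 lower, with calls gained by Orc4, Mcm2, Mcm5 and Wdhd1 as higher and by Rfc4 as lower. Of the 34 members called, 22 kept their call and direction under all 17 alternatives, 17 of them lower and 5 higher. These alternatives include the FPKM scale, where all genes leaned lower as well. With limma on log2(FPKM + 0.5), 1730 of 9728 genes were higher and 4723 lower. How many of all genes kept their calls was not counted.

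**Figure D1:**
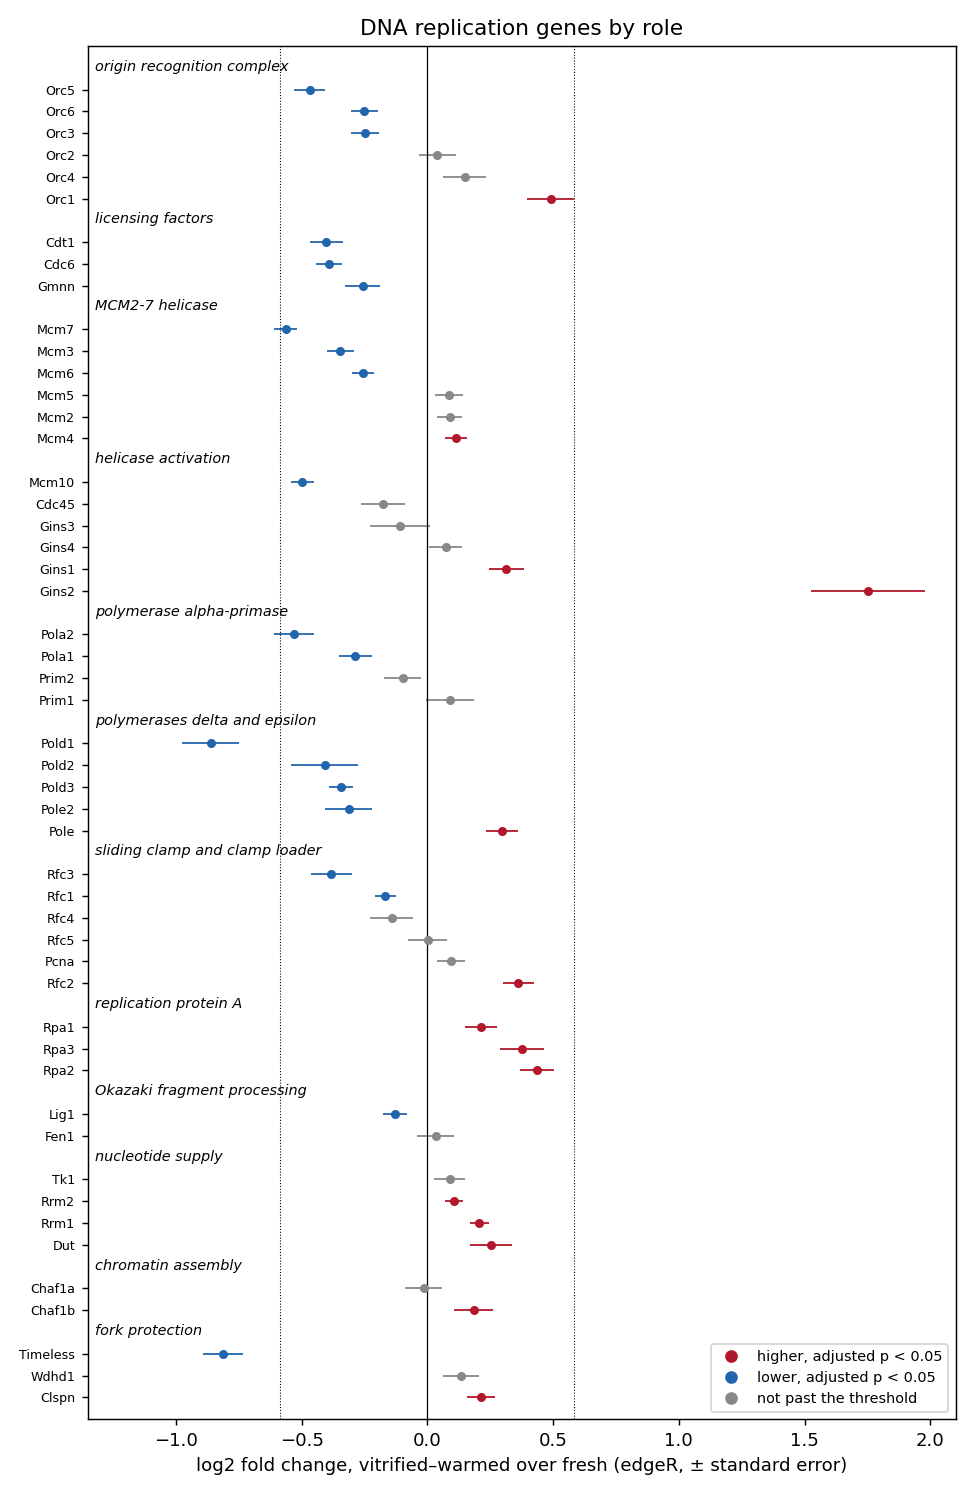
Log2 fold change of each of the 50 replication genes (x axis, vitrified–warmed over fresh, edgeR), grouped by role on the y axis, with bars of 1 standard error and dotted lines at 1.5-fold. Most genes lie between the dotted lines, with Gins2 at 1.75, Timeless at -0.81 and Pold1 at -0.86 outside them. Mcm4 and Rrm2, shown as higher, are below 0 on the FPKM scale.

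The libraries held 9093411 to 11843562 exon fragments, and the 50 genes took 0.407% to 0.414% of them in fresh and 0.395% to 0.401% in vitrified–warmed libraries. Summed over the genes, the level was 4038, 4206 and 4172 CPM in the fresh and 3990, 3900 and 4022 CPM in the vitrified–warmed libraries. CPM are the exon fragments of a gene after scaling each library to a common total with TMM factors. The ratio was 0.959 without overlap, but the closest libraries, at 4038 and 4022 CPM, were near each other. These sums were taken with TMM scaling only. In bulk libraries fewer cells of a type and less RNA per cell cannot be told apart. Other properties moved with the groups, and their part in the results was not tested. Exon fragments were 63.2% to 63.6% of the library total implied by the FPKM in fresh and 54.4% to 56.6% in vitrified–warmed libraries. A smaller share lowers every FPKM of a library relative to its CPM. The 18S ribosomal entry Rn18s-rs5 took 10.3% to 10.4% of the exon fragments in fresh and 7.73% to 8.34% in vitrified–warmed libraries. Fresh library 1 stood apart with 20086 genes detected, against 15558 and 15991 in the other fresh ones, and each vitrified–warmed library detected between 17563 and 17764. The markers of trophectoderm, the outer layer of the blastocyst, summed to 1425 to 1495 CPM in fresh and 1655 to 1661 CPM in vitrified–warmed libraries, with 5 of 7 higher, 1 lower and none at 0. Epiblast markers summed to 811 to 846 CPM and 846 to 878 CPM (3 of 7 higher, 2 lower), and primitive endoderm markers to 621 to 632 CPM and 690 to 711 CPM (1 of 6 higher, 1 lower, and 1 too low to test). Blood and immune markers summed to 3.51 to 4.97 CPM and 14.4 to 19.3 CPM, with none at 0 in all libraries. Only 3 of the 7 (Hba-a1, Hbb-bs and Cd68) had enough fragments to test, and all 3 were higher. Oocyte markers summed to 18.1 to 19.7 CPM and 10.9 to 17.6 CPM, with 6 of 7 tested, 1 higher and 3 lower. Cumulus markers summed to at most 5.06 CPM and sperm and oviduct markers to at most 1.29 CPM, with none tested. Prm2, Tnp1 and Tnp2 were at 0 in all 6 libraries.

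The start sites of the replication genes are shown first, since E2F factors bind there in many S-phase genes. RefSeq promoters (GRCm38.p6, 250 bases before to 50 bases after the annotated start) matched 42 of the 50 genes. The motif searched was TTTCCCGC, TTTCGCGC, TTTGCCGC or TTTGGCGC on either strand, the usual letters of an E2F site. It was found in 15 of the 42 promoters (35.7%) and in 2.26% of all 32851 promoters of the table. The latter share counts every entry, also of genes not tested. Among other tested genes, taken like the members by the promoter nearest the gene start, 370 held the motif and 8571 did not. A match is a description of the letters and does not show that a factor binds. The windows below run from 100 bases before to 50 bases after the start, 5′ to 3′ on the gene's strand, with the motif in capitals. Pold1 and Mcm7 are shown as strong falls and Orc1 and Rpa2 as strong rises. Mcm3 and Cdt1 were added after their values were seen, as a helicase subunit with a pair of matches and a licensing factor. Pola2, Mcm10, Orc5 and Pold2 fell further than both (log2 fold changes of -0.53, -0.50, -0.47 and -0.41). Their promoters held no match and are not printed, so the windows shown are not typical of the falls.
Pold1, chr7:44548766-44548915, minus strand: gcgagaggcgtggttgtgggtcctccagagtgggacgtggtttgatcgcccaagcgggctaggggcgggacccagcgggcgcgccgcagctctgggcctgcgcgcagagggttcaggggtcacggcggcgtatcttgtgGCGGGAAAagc
Mcm7, chr5:138171834-138171983, minus strand: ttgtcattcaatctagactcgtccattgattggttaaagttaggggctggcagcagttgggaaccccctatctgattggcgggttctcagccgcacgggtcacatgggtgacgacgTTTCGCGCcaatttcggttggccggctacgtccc
Mcm3, chr1:20820263-20820412, minus strand: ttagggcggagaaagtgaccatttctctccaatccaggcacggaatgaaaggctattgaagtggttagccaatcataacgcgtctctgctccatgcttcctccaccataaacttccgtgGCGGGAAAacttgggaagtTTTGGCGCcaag
Cdt1, chr8:122567915-122568064, plus strand: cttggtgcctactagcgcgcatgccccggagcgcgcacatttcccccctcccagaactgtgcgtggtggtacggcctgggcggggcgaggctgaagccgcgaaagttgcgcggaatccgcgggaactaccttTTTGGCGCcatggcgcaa
Orc1, chr4:108579354-108579503, plus strand: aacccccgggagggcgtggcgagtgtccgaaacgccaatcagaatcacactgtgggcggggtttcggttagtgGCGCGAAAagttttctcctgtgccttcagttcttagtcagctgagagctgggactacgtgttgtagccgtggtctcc
Rpa2, chr4:132768260-132768409, plus strand: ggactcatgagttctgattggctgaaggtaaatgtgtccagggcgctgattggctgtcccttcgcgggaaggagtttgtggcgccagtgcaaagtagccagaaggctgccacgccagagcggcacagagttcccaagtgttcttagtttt

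With the start base counted as 1, the first base of the motif was at position 40 in Pold1, 17 in Mcm7 and 33 in Cdt1, and the matches in Mcm3 began at 20 and 39. In Orc1, which rose, a match began at position -27, before the start, and the RefSeq start lies 3955 bases inside the gene span of the expression table. The Rpa2 promoter held no match of this motif, but it held 1 match of the shorter motif described below, which lacks the first T. Gins2 was among the 8 genes without an entry, and the Timeless entry lies 6003 bases inside that gene's span and is not printed.

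Of the 15 members with the motif 11 were lower, 2 were higher (Orc1 and Clspn) and 2 were not called, with a median log2 fold change of -0.31. Of the 27 members without it 8 were lower, 7 higher and 12 not called, with a median of 0.04. Outside the replication genes the shares differed little by motif. Among the 370 other tested genes that held it 34.6% were lower and 28.4% higher, with a median of -0.01, and among the 8571 without it 34.0% were lower and 29.0% higher, with a median of -0.03. Several of the 15 are subunits of the same complex and are not independent of each other, and no test was made. With a shorter motif that lacks the first T of each form, chosen after seeing the data and present in 9.57% of promoters, 12 of 25 members with a match were lower and 7 higher (median -0.14), against 7 lower and 2 higher of 17 without (median 0.0014). The split by motif thus depended on the letters taken.

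In the origin recognition complex, the 6-subunit loader that marks origins, 1 subunit rose, 3 fell and 2 did not pass. Orc1, the ATPase subunit that is degraded and remade in each cycle of human cells, was at 20.0, 22.3 and 23.1 CPM in the fresh and 31.0, 32.8 and 28.3 CPM in the vitrified–warmed libraries. Every vitrified–warmed library was above every fresh one, and the log2 fold change was 0.49 ± 0.09 (SE, n = 3 per group, edgeR adjusted p = 2.34e-04). Its annotation shares 3838 bases with Prpf38a on the other strand, and it is not stated whether the counting used strand. Prpf38a had a log2 fold change of -0.05 and was not called.

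The other ORC subunits that changed went the opposite way. Orc5 fell from 57.1 ± 1.46 to 41.3 ± 1.20 CPM (SD, n = 3), a log2 fold change of -0.47, with Orc3 and Orc6 at -0.25 each. Orc2 was at 63.6 ± 6.05 and 65.3 ± 4.20 CPM and Orc4 at 66.5 ± 3.31 and 73.5 ± 10.3 CPM, and neither passed the test. Per kilobase of exon, Orc1 had the lowest and Orc6 the highest level of the complex in both groups. They stood at 4.44 and 51.9 CPM per kilobase in fresh and 6.25 and 43.6 in vitrified–warmed blastocysts, so that the span of levels narrowed from 11.7-fold to 6.97-fold.

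The 3 licensing factors all fell. Cdt1, which carries the MCM hexamer to ORC and is destroyed once S phase begins, was at 79.3, 78.9 and 74.5 CPM in the fresh and 63.5, 52.9 and 59.2 CPM in the vitrified–warmed libraries. The groups did not overlap, and the log2 fold change was -0.40 ± 0.07 (adjusted p = 6.34e-05, edgeR). Cdc6, the ATPase that joins ORC to load the helicase, went from 106 ± 1.85 to 80.6 ± 4.02 CPM with a log2 fold change of -0.39. Gmnn encodes geminin, the inhibitor that holds CDT1 back after licensing, and it fell as well, by 0.26 on the log2 scale. The summed level of the 3 genes was 0.779 of the fresh level, the lowest ratio among the 12 roles. All 3 kept their call under every alternative run.

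The 6 subunits of the MCM2-7 hexamer, the motor of the replicative helicase, did not move together, although they act in equal numbers. Mcm7 was at 185, 188 and 198 CPM in the fresh and 130, 133 and 124 CPM in the vitrified–warmed libraries. That is a log2 fold change of -0.56 ± 0.05 (adjusted p = 7.85e-08, edgeR), the largest fall of the complex. Mcm3 fell by 0.35 and Mcm6 by 0.26 on the log2 scale. Mcm4 went the other way, from 209 ± 8.63 to 226 ± 8.98 CPM, with a log2 fold change of 0.11 that turned to -0.06 on the FPKM scale and lost its call without fresh library 1 or 3 or vitrified–warmed library 3. Mcm2 (112 ± 6.51 and 119 ± 1.80 CPM) and Mcm5 (92.3 ± 5.90 and 98.1 ± 3.83 CPM) did not pass.

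Per kilobase of exon Mcm7 was the highest of the 6 in fresh blastocysts at 72.9 CPM per kilobase, and Mcm4 was the highest in vitrified–warmed ones at 63.1. Mcm5 was the lowest in both, at 26.8 and 28.5. Within a library, where scaling cancels, the ratio of Mcm7 to Mcm4 fragments was 0.926, 0.875 and 0.928 in fresh and 0.587, 0.602 and 0.524 in vitrified–warmed blastocysts. Mcm7 also hosts Mir106b, Mir25 and Mir93 in an intron, and none of the 3 had a fragment in these libraries. The libraries were made for mRNA, so this does not measure mature microRNAs. The paper assayed those by PCR and reports a mature product of Mir93 as lower in vitrified–warmed blastocysts.

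**Figure D2:**
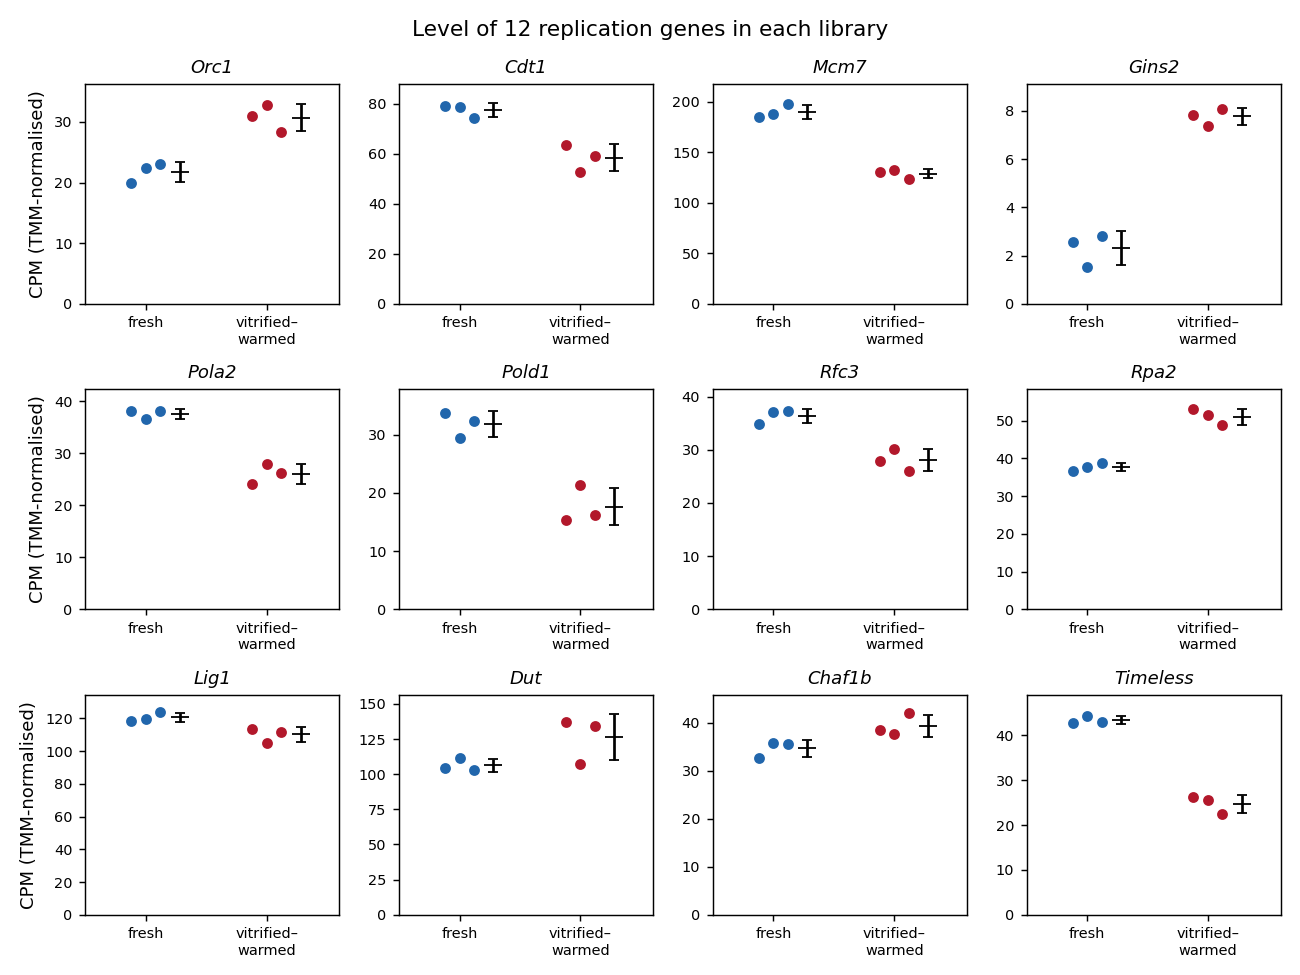
Level in CPM (y axis, from 0, TMM-normalised) of the gene with the largest fold change in each of the 12 roles, with 1 point per library for fresh and vitrified–warmed blastocysts and the mean with SD (n = 3) beside them. Of these 12 genes only Dut overlaps between the groups, and the gap between the groups is narrow for Lig1 and Chaf1b.

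Among the factors that turn the loaded helicase into a moving one, 2 were higher, 1 was lower and 3 did not pass. Gins2 encodes a subunit of the 4-part GINS complex, and it had the largest change of all 50 genes. It lies on chromosome 8 from 120581266 to 120589075 in GRCm38 and has 5 exons in the expression table. It was at 2.57, 1.51 and 2.83 CPM in the fresh and 7.84, 7.39 and 8.09 CPM in the vitrified–warmed libraries, a 3.37-fold rise with a log2 fold change of 1.75 ± 0.23 (adjusted p = 7.15e-06, edgeR). On log2(FPKM + a pseudocount of 0.1, 0.5 or 1) the change was 1.56, 1.33 and 1.13. On that scale the median of all genes tested lay below 0, and a larger pseudocount also shrinks the change of low genes. Gins2 also had the fewest fragments of the 50 genes over the 6 libraries. Its levels rest on 28, 17 and 33 fragments in fresh and 84, 68 and 91 in vitrified–warmed libraries. Its end overlaps Gse1 on the other strand by 118 bases, and Gse1 moved the other way (log2 fold change -0.51).

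The remaining GINS subunits changed less. Gins1 went from 37.4 ± 1.52 to 46.4 ± 1.76 CPM (log2 fold change 0.31), while Gins3 (16.8 ± 2.43 and 15.6 ± 0.62 CPM) and Gins4 (44.2 ± 1.22 and 46.5 ± 2.01 CPM) did not pass. The ratio of Gins2 to Gins1 fragments was 0.0718, 0.0403 and 0.0727 in fresh and 0.163, 0.166 and 0.173 in vitrified–warmed libraries. Per kilobase of exon Gins2 stood at 2.22 ± 0.68 CPM in fresh blastocysts, below every other member. In vitrified–warmed ones Gins3 was the lowest of the role at 6.47. Mcm10, which joins the helicase when it is activated, went from 157 ± 5.82 to 112 ± 1.09 CPM without overlap of the groups (log2 fold change -0.50). Cdc45, the GINS partner, was at 36.7 ± 2.72 and 32.5 ± 3.14 CPM and did not pass.

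Polymerase alpha-primase starts every new strand with a short primer. Its B subunit, Pola2, was at 38.1, 36.5 and 38.0 CPM in the fresh and 24.1, 27.8 and 26.2 CPM in the vitrified–warmed libraries. The log2 fold change was -0.53 ± 0.08 (adjusted p = 3.26e-05, edgeR), without overlap. The catalytic subunit Pola1 fell by 0.29 on the log2 scale. The primase genes did not pass. Prim1, the catalytic subunit, was at 22.1 ± 1.53 and 23.5 ± 1.73 CPM, and Prim2 at 42.1 ± 2.78 and 39.3 ± 1.22 CPM. The ratio of Pola2 to Prim1 fragments went from between 1.59 and 1.78 to between 0.974 and 1.29.

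The genes of the replicative polymerases split by enzyme at the catalytic subunit. Pold1, the catalytic subunit of the lagging-strand polymerase delta, had the largest fall of all 50 genes. It lies on chromosome 7 from 44532744 to 44548815, with 27 annotated exons. It was at 33.7, 29.4 and 32.3 CPM in the fresh and 15.4, 21.3 and 16.2 CPM in the vitrified–warmed libraries, a log2 fold change of -0.86 ± 0.11 (1.82-fold lower, adjusted p = 9.82e-06, edgeR). Pole, the catalytic subunit of the leading-strand polymerase epsilon, rose from 50.7 ± 3.00 to 62.3 ± 2.54 CPM (log2 fold change 0.30). On the FPKM scale it was at 0.11 and not called.

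The 3 accessory subunits among the members fell. Of the small subunits of polymerase epsilon in the wider list, named after their values were seen, Pole3 rose by 0.57 and Pole4 fell by 0.26 on the log2 scale. Pold2 was at 12.6 ± 0.44 and 9.49 ± 1.35 CPM (log2 fold change -0.41) on 85, 95 and 115 fragments in the vitrified–warmed libraries, and its call was lost without fresh library 3 or vitrified–warmed library 1. Pold3 fell by 0.34 and Pole2 by 0.31 on the log2 scale. Pole2 shares 1326 bases with Klhdc1 on the other strand, which was higher by 1.32 but held 194 fragments over all libraries. Within a library the ratio of Pold1 to Pole fragments was 0.714, 0.561 and 0.615 in fresh and 0.237, 0.356 and 0.26 in vitrified–warmed blastocysts.

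**Figure D3:**
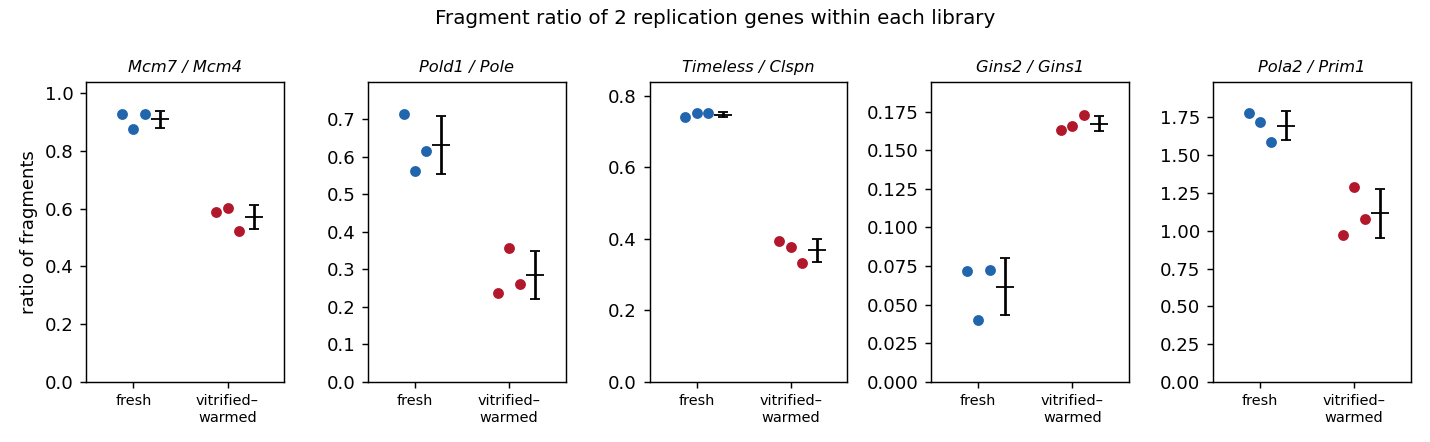
Ratio of exon fragments of 2 genes within each library (y axis, from 0) for 5 pairs, with 1 point per library and the mean with SD (n = 3) for fresh and vitrified–warmed blastocysts. The pairs were chosen after their values were seen. Mcm7 to Mcm4, Pold1 to Pole, Timeless to Clspn and Pola2 to Prim1 are lower, and Gins2 to Gins1 is higher, in each vitrified–warmed library than in each fresh one.

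The 5 pairs of fragment ratios were taken from genes that had moved apart, so their separation is a description and not a test. They bear on scaling only, since a factor that multiplies a whole library leaves a ratio within it unchanged. The ratios are not corrected for exon length and do not rank the genes of a pair by level.

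Pcna, the ring that tethers polymerases to DNA, and its loader replication factor C showed 1 rise, 2 falls and 3 genes that did not pass. Pcna was at 134 ± 4.88 and 142 ± 10.8 CPM. The table also lists Pcna-ps1 and Pcna-ps2, pseudogenes whose reads could be shared with it. Rfc3 was at 34.9, 37.1 and 37.3 CPM in the fresh and 27.8, 30.2 and 26.0 CPM in the vitrified–warmed libraries, with a log2 fold change of -0.38 ± 0.08 (adjusted p = 6.55e-04, edgeR). Rfc2 moved almost as far upwards, by 0.36, from 44.6 ± 1.37 to 57.3 ± 0.83 CPM. Rfc1, the large subunit, fell by 0.17, and at -0.12 lost its call with the exon length offset and the replicate block together. Rfc4 (48.4 ± 1.57 and 43.7 ± 6.15 CPM) and Rfc5 (43.0 ± 1.19 and 42.9 ± 4.42 CPM) did not pass.

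All 3 subunits of replication protein A, which coats the single strands that the helicase exposes, rose. Rpa2 was at 36.6, 37.7 and 38.8 CPM in the fresh and 53.0, 51.5 and 48.8 CPM in the vitrified–warmed libraries. The log2 fold change was 0.44 ± 0.07 (adjusted p = 3.79e-05, edgeR), and the groups did not overlap. Rpa3 was higher by 0.38 and Rpa1 by 0.21. The summed level rose to 1.26 of the fresh level, the highest ratio among the 12 roles. Rpa1 was at 0.04 and not called on the FPKM scale, and Rpa3 was at 0.16 and not called once exon length was taken into the fit.

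The enzymes that finish the lagging strand were near level. Lig1, which seals Okazaki fragments, was at 119, 120 and 124 CPM in the fresh and 114, 105 and 112 CPM in the vitrified–warmed libraries. This fall of 0.13 on the log2 scale (SE 0.05, adjusted p = 0.0258, edgeR) was lost under DESeq2, the housekeeping scaling, the filter at a mean above 1 FPKM and the exon length fit, and without fresh library 2 or 3 or vitrified–warmed library 2. Fen1, the flap nuclease, was at 54.9 ± 4.91 and 56.1 ± 3.55 CPM and did not pass.

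The nucleotide supply genes leaned upwards, with 3 of 4 higher and none lower, by little. Dut, the enzyme that clears dUTP, was at 105, 111 and 103 CPM in the fresh and 137, 107 and 135 CPM in the vitrified–warmed libraries. Vitrified–warmed library 2 lay among the fresh ones, and the log2 fold change was 0.25 ± 0.08 (adjusted p = 0.0211, edgeR), a call that was lost without fresh library 1 or 3 or vitrified–warmed library 3. Rrm1 and Rrm2 encode the subunits of ribonucleotide reductase, which makes deoxynucleotides. Rrm1 went from 273 ± 3.43 to 315 ± 4.13 CPM (log2 fold change 0.21) and Rrm2 from 430 ± 7.80 to 462 ± 9.79 CPM (0.11). The call of Rrm2 was lost without fresh library 3. On the FPKM scale Rrm2 was at -0.07, and Rrm1 and Dut were at 0.04 and 0.07 and not called. Tk1, thymidine kinase, was at 59.0 ± 3.33 and 62.7 ± 2.23 CPM and did not pass. Rrm2 had the highest level per kilobase of the 50 genes in both groups, at 197 and 212 CPM per kilobase.

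**Figure D4:**
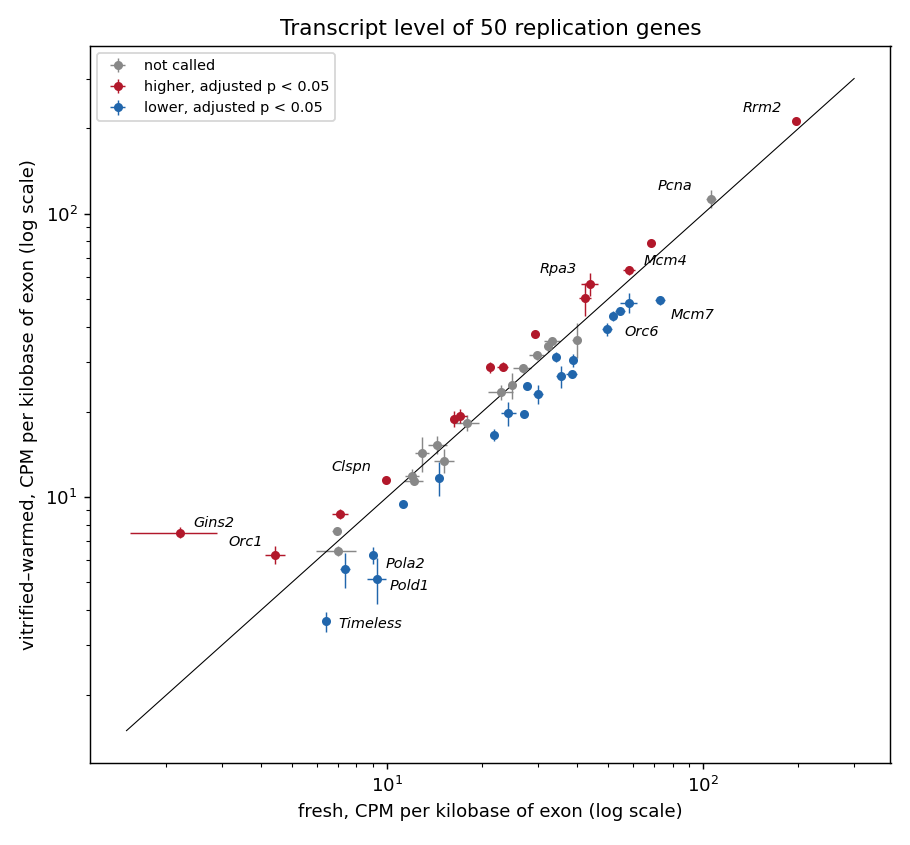
Mean level of the 50 replication genes in CPM per kilobase of exon, fresh on the x axis and vitrified–warmed on the y axis (both log scales), with SD bars (n = 3 per group) and a line of equal level. The genes follow the line from Gins2 and Timeless at the low end to Pcna and Rrm2 at the top, and Gins2 (2.22 in fresh) stands farthest from it. Mcm4 and Rrm2, shown as higher, are below 0 on the FPKM scale.

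Chromatin assembly factor 1 places new histones behind the fork. Its subunit Chaf1b was at 32.7, 35.9 and 35.6 CPM in the fresh and 38.5, 37.6 and 42.0 CPM in the vitrified–warmed libraries, a log2 fold change of 0.18 ± 0.08 (adjusted p = 0.0444, edgeR). This call was near the threshold and was lost without any 1 of the fresh libraries or without vitrified–warmed library 3. Chaf1a was at 39.7 ± 2.07 and 39.3 ± 2.19 CPM and did not pass.

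The 3 fork protection genes moved apart, with 1 lower, 1 higher and 1 that did not pass. Timeless, which keeps the helicase and polymerases together, was at 42.7, 44.4 and 43.1 CPM in the fresh and 26.2, 25.5 and 22.5 CPM in the vitrified–warmed libraries. The gene, on chromosome 10 from 128232063 to 128252941 with 35 annotated exons, fell by 0.81 on the log2 scale (SE 0.08, 1.76-fold lower, adjusted p = 4.83e-07, edgeR). Clspn encodes claspin, which relays the signal of a stalled fork to the kinase CHK1, and it rose from 58.0 ± 0.96 to 67.3 ± 0.63 CPM (log2 fold change 0.21). On the FPKM scale it was at 0.04 and not called. Wdhd1, which links the helicase to polymerase alpha, was at 35.5 ± 1.19 and 39.0 ± 1.06 CPM. Its groups did not overlap, but it did not pass. The ratio of Timeless to Clspn fragments was 0.74, 0.751 and 0.753 in fresh and 0.394, 0.377 and 0.333 in vitrified–warmed libraries. Per kilobase of exon the span over the 3 genes widened from 1.55-fold to 3.14-fold.

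Beyond the 50 genes, 75 other genes of replication were listed in 6 groups, and all 75 were tested. Of these 18 were higher (24%) and 29 lower (38.7%), near the 31.6% and 32.8% of all genes tested, with a median log2 fold change of -0.06. Of 13 firing and checkpoint factors 3 were higher and 5 lower. Cdc7, the kinase that phosphorylates the MCM hexamer to fire origins, was at 22.3, 23.6 and 23.7 CPM in the fresh and 12.2, 13.4 and 11.8 CPM in the vitrified–warmed libraries (log2 fold change -0.90). Its activator Dbf4 was at -0.01 and did not pass. Recql4, a helicase that acts at origin firing, was at 5.06, 6.11 and 5.74 CPM and 11.6, 13.0 and 10.2 CPM (log2 fold change 1.03), and Atrip, the partner of the checkpoint kinase ATR, was lower (-0.96). Tipin, the binding partner of Timeless, was lower as well (-0.45, adjusted p = 1.11e-06, edgeR), a gene named after its value was seen.

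Of 13 other nucleotide supply enzymes 3 were higher and 8 lower, with a median of -0.30, in contrast in count to the 3 of 4 members of that role that were higher. Samhd1, which breaks down deoxynucleotides, had the largest fall of the 75 genes. It was at 22.3, 20.6 and 20.5 CPM in the fresh and 6.25, 6.41 and 5.51 CPM in the vitrified–warmed libraries (log2 fold change -1.80 ± 0.12, adjusted p = 1.50e-08, edgeR). Of 16 other fork enzymes and clamp loaders 6 were higher and 4 lower, with Polh, a polymerase that copies past damaged bases, at 0.90. Of 10 histone supply and assembly genes 2 were higher and 3 lower, and of 10 ubiquitin and degradation factors 1 was higher and 3 lower.

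Of 13 genes of the E2F and retinoblastoma family 3 were higher and 6 lower, with a median of -0.27. E2f2, an activator, was at 2.85, 2.75 and 2.40 CPM in the fresh and 5.51, 5.00 and 4.89 CPM in the vitrified–warmed libraries (log2 fold change 0.94). It was the largest rise of the family, at a low level. E2f1 (-0.09) and E2f3 (0.23), the other activators, did not pass. The 6 lower genes were E2f8 (-0.80), E2f4 (-0.77), Rbl2 (-0.58), Rb1 (-0.51), Tfdp1 (-0.33) and E2f7 (-0.27). Tfdp2 (0.57) and E2f6 (0.30) were the remaining higher genes. Of these, E2f4 went from 51.8 ± 1.41 to 30.4 ± 3.38 CPM (SD).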

How the data were processed

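The authors trimmed and aligned the reads with CLC Genomics Workbench to GRCm38. They deposited fragment counts per gene, which are whole numbers without normalization, and FPKM. The paper states that FPKM were calibrated to the geometric mean of 12 housekeeping genes. The deposited FPKM were used here without added calibration, and whether they already include that step was not tested. The library total implied by the FPKM was larger than the sum of exon fragments, by a share that differed between the groups. The strand handling of the counting is not given in the sources used here. The deposited fold changes and p-values of the authors' own comparison were not used, and 8 of 28887 entries that name no gene were left out. Counts were filtered with filterByExpr and fitted with edgeR 4.0.16 (TMM, robust quasi-likelihood test, R 4.3.3), with p-values adjusted over 12774 genes. Levels were compared between genes per kilobase of exon. The fragment ratios of gene pairs were not corrected for exon length and serve to compare libraries. Standard errors were taken from the fold change and its F statistic. The members and the lists were chosen with earlier results of these data known, so no list was tested. Values of all libraries are given for members called with at least a 1.5-fold change, for the member with the largest change of each role, and for up to 3 other pathway genes per direction. Libraries were grouped by their names. Replicate numbers do not pair the libraries. The alternatives used DESeq2 1.42.0, limma 3.58.1 on log2(FPKM + a pseudocount of 0.5, 0.1 or 1), other scalings and filters, an exon length offset, the replicate number as a block and each library left out. With 9093411 or more fragments per library, counting error was largest for Gins2 and Pold2, the members with the fewest fragments. Intervals and errors cover aliquots of a pool only.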

Additional observations from a re-analysis of the deposited data

How the results depend on the processing

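RLE scaling left the calls of all 50 genes in place, with the direction of every called gene. Of the 16 members not called, 1 changed sign without passing. With limma on log2(FPKM + 0.5), log2(FPKM + 0.1) and log2(FPKM + 1), in that order, all genes higher numbered 1730, 1716 and 1732, replication members higher 6, 5 and 6, members at least 1.5-fold lower 6, 6 and 5, members with the E2F motif higher 1, 1 and 1, and members without it higher 2, 1 and 2. The median log2 fold change of the members was -0.17, -0.18 and -0.16 there, beside -0.18, -0.20 and -0.17 for all genes tested, so that the members moved with the whole scale. Mcm4 reversed to -0.058, -0.059 and -0.057 and Rrm2 to -0.066, -0.067 and -0.066, and of the 16 members not called 11 changed sign without passing. A filter at a mean above 1 FPKM gave 2789 genes lower, since fewer genes were tested. An exon length offset put the members' median at 0.043, and at 0.040 with the replicate block. The shorter E2F motif, chosen after seeing the data, had 7 members higher with it and 2 without it.

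With each library left out in turn, members higher ranged from 10 to 16 and members lower from 18 to 21, 28 of the 34 called members kept their call and direction, and members without the E2F motif that were higher ranged from 4 to 9, with 4 without fresh library 3 (the cause was not tested). Calls were gained by Orc4, Cdc45 and Pcna without vitrified–warmed library 2 and by Rfc4 without vitrified–warmed library 3. Libraries with the same replicate number did not deviate together (correlations of -0.012, -0.026 and 0.037 over genes), and a fit with the replicate number as a block gave 13 members higher and 20 lower, and 3890 genes higher and 4073 lower, with Chaf1b the member that lost its call, and the block with the exon length offset also ended the call of Rfc1 (-0.12). Depth limits Gins2 most, at 17 to 33 fragments in the fresh libraries, and then Pold2.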
